A study of Mus musculus with 4 samples.

Results

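RET, its ligands of the GDNF family, their co-receptors and transcription factors of neural crest derivatives were followed as 8 genes chosen by symbol: Ret, Gdnf, Nrtn, Gfra1, Gfra2, Gfra3, Phox2a and Hand2. A probe set counted when the annotation deposited for the arrays gave it exactly 1 of these symbols and no other. This found 7 of the 8 genes, on 14 of the 45037 probe sets tested. Gfra3 was named only on a probe set shared with another gene, so no value is given for it.

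The arrays compared the muscularis of the small intestine from 2 smDicer KO mice and 2 WT mice, with 1 Affymetrix GeneChip Mouse Genome array per mouse. The smDicer KO mice, written smDicer-/-;Cre-GFP/+ in the study, carried a transgene for Cre and eGFP under the promoter of smooth muscle myosin heavy chain. Cre recombination was thus directed to smooth muscle and not to nerve cells. The study gives their Dicer genotype as lox/Δ, a floxed and a deleted allele. It also lists mice with the deleted allele and no Cre. The nerve cells of smDicer KO mice may therefore carry the deleted allele as well. The labels name jejunum and an age of 3 weeks for all 4 mice, and mucosa and submucosa had been stripped off. The methods call mice with the Cre transgene alone WT, but the study also counts other genotypes as wild type, and the labels do not say which the 2 WT arrays hold. Whether both groups carried the transgene is therefore not known here. Only the smDicer KO mice are said in the methods to be female, with no statement for WT.

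GDNF and neurturin (Nrtn) are secreted proteins that bind co-receptors of the GFR alpha family, GDNF mainly the product of Gfra1 and neurturin mainly that of Gfra2. The complex activates RET, a receptor tyrosine kinase on the neural crest cells that enter the gut and on the enteric neurons they form. The gut wall makes GDNF, which guides crest cells and keeps them alive and dividing, and mice without Ret or Gdnf lack neurons along most of the bowel. Phox2a and Hand2 are transcription factors of autonomic neurons, and Hand2 is also made in gut mesenchyme. The ligands come largely from the muscle layers, while Ret, Gfra1, Gfra2 and Phox2a are mainly genes of nerve cells.

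Values are log2 intensities, on which a difference of 1 is a doubling, and every fold change is smDicer KO against WT. The arrays had medians of 5.22 each in smDicer KO and of 5.18 and 5.17 in WT, and values under 6 were read as near background. At an adjusted p under 0.05, 0.0% of the 45037 probe sets were called (limma, Benjamini-Hochberg), against 7119 at an unadjusted p under 0.05. None of the differences below passed the adjusted test, and with 2 arrays in each group the smallest two-sided p of an exact permutation test is 0.333. Dicer1 itself had values of 7.52 and 7.36 in smDicer KO, against 7.82 and 8.08 in WT (log2 fold change -0.51, SE 0.16, limma adjusted p = 0.271) on the lead of its 2 probe sets. The other had 6.74 and 6.98 in smDicer KO, against 7.2 and 7.50 in WT (log2 fold change -0.49, SE 0.17, limma adjusted p = 0.302), and neither need lie in the deleted part. Over 12 genes of mucosal epithelium, the median value less its WT mean was 3.45 and 6.05 in smDicer KO, against -0.64 and 0.64 in WT. Both smDicer KO arrays lay above both WT arrays for all 12, against 20.6% of all probe sets. Over 6 genes of pancreatic acinar cells it was -1.90 and 5.12 in smDicer KO, against -1.74 and 1.74 in WT. The second smDicer KO array therefore held the highest levels of both lists, and their part in the results below was not tested.

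The ligands were lower in smDicer KO. Nrtn had values of 7.54 and 7.36 in smDicer KO, against 8.82 and 9.07 in WT. The groups lay more than 1 log2 unit apart, and the arrays within each group lay close together. The means were 7.45 ± 0.13 in smDicer KO and 8.94 ± 0.18 in WT (SD, n = 2 each), a 2.80-fold lower level (log2 fold change -1.49, SE 0.16, 95% interval -1.90 to -1.07, limma unadjusted p = 0.000377, adjusted p = 0.215). Of 20461 genes, each taken on the probe set of highest mean, Nrtn stood in place 81 from the lowest log2 fold change and in place 41 by unadjusted p. It was the only member probe set with an unadjusted p under 0.05 under every setting tried (with 1 array left out, the group of 1 was taken to vary like the other), and its log2 fold change stayed between -1.61 and -1.36 when any 1 array was left out.

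Gdnf had values of 7.42 and 5.53 in smDicer KO, against 7.66 and 8.20 in WT. Both smDicer KO arrays lay below both WT arrays, but the first of them by less than the distance between the WT arrays. The means were 6.47 ± 1.34 in smDicer KO and 7.93 ± 0.39 in WT (SD, n = 2 each), and the log2 fold change was -1.46 (SE 0.67, 95% interval -3.23 to 0.32, limma adjusted p = 0.378). The size of the difference rested on the second smDicer KO array, since it was -0.51 without that array and -2.40 without the first. The 5.53 on that array is itself near background, so the size without the first array is not exact. The 95% intervals of Nrtn and Gdnf overlapped, and the difference between them was not tested. In bulk tissue, fewer cells that make a transcript cannot be told apart from less transcript in each cell, for these genes and for those that follow.

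**Figure D1:**
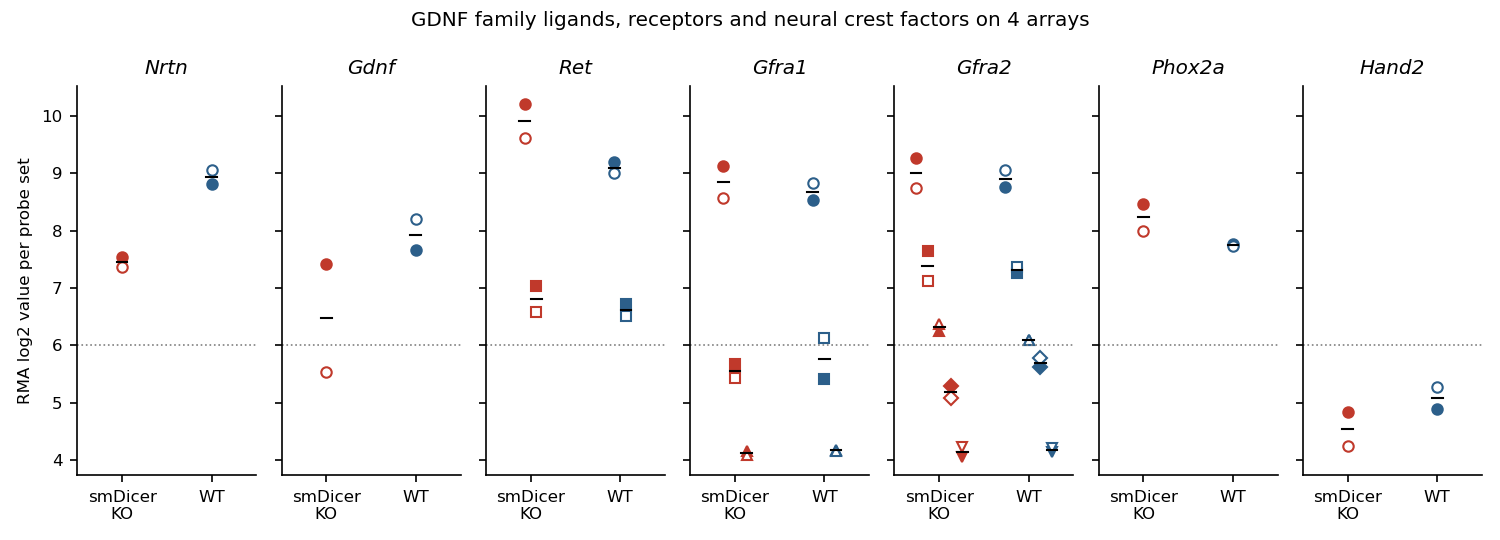
Log2 value of each member probe set on each array, with smDicer KO (red) left of WT (blue) for every gene. Filled and open symbols are the first and second array of a group, marker shapes are different probe sets of a gene, bars are group means, and the dotted line marks a log2 value of 6. Nrtn shows the clear separation of 7.54 and 7.36 in smDicer KO from 8.82 and 9.07 in WT, Gdnf the lone value of 5.53 in smDicer KO, and Hand2 lies under the line on all 4 arrays. Levels are not comparable between probe sets.

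The sequences before the starts of both ligand genes are shown because these were the members with the lowest log2 fold changes. Smooth muscle genes are known to be driven by serum response factor (SRF) through the CArG box, found mainly in their promoters and introns. RefSeq windows (GRCm38.p6) of the 250 bases before an annotated start were held for 5 of the 7 members measured, with 6 windows in all because Gdnf had 2 starts. The Gdnf window is chr15:7809798-7810047 on the plus strand and the Nrtn window is chr17:56757549-56757798 on the minus strand, each printed 5′ to 3′ toward the start. Capitals mark TATAAA and the E-box CANNTG, the core bound by basic helix-loop-helix factors such as the product of Hand2.
Gdnf: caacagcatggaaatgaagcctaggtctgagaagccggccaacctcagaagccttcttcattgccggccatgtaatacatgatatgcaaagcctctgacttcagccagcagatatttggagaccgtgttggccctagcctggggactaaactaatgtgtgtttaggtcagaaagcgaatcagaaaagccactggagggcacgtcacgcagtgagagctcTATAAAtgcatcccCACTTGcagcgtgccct
Nrtn: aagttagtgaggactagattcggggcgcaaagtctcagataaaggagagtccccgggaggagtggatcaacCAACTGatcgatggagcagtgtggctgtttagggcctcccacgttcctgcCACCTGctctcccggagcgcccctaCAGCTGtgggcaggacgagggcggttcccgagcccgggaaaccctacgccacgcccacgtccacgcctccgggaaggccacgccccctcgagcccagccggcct
The Gdnf window held TATAAA 31 to 26 bases before the start and the E-box CACTTG 17 to 12 bases before it. The Nrtn window held no TATAAA and 3 E-boxes, CAACTG (179 to 174 bases before the start), CACCTG (129 to 124) and CAGCTG (104 to 99). The second Gdnf window, chr15:7813477-7813726, held the E-box CAAGTG 176 to 171 bases before its start. The CArG box, searched on both strands, was in 0 of the 6 member windows and in 1.47% of all 32851 windows of the same length. At so low a rate, 0 of 6 says little. Introns, sequence farther from the start and boxes that differ from the exact CArG box were not searched. An E-box was in 66.2% of all windows and TATAAA in 12.4%. GC content was 50.8% in the first Gdnf window and 64.8% in the Nrtn window, against a median of 52.4% over all windows.

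Among the receptor genes, Ret was higher in smDicer KO on 1 of its 2 probe sets. The lead probe set (1436359_at), the one with the higher mean, had values of 10.21 and 9.61 in smDicer KO, against 9.20 and 9.0 in WT, with no overlap. The means were 9.91 ± 0.43 in smDicer KO and 9.10 ± 0.15 in WT (SD, n = 2 each), a 1.76-fold higher level (log2 fold change 0.81, SE 0.24, 95% interval 0.17 to 1.46, limma unadjusted p = 0.0239, adjusted p = 0.263). Without the first smDicer KO array the log2 fold change was 0.51, and without the second it was 1.11. The other probe set (1421359_at) had values of 7.04 and 6.58 in smDicer KO, against 6.72 and 6.51 in WT, so that the groups overlapped. Its log2 fold change was 0.19 (SE 0.21, 95% interval -0.36 to 0.74, limma adjusted p = 0.698). The deposited alignment of the lead probe set spans 763 bases and that of the other 43505 bases, so they need not measure the same transcripts. Whether their fold changes differ was not tested.

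Gfra1, the main co-receptor for GDNF, had values of 9.12 and 8.56 in smDicer KO on its lead probe set (1439015_at), against 8.53 and 8.83 in WT. The groups overlapped and the log2 fold change was 0.16 (SE 0.24, 95% interval -0.49 to 0.80, limma adjusted p = 0.794), and the difference from the fold change of Ret was not tested. A second Gfra1 probe set (1450440_at) overlapped as well, with 5.67 and 5.42 in smDicer KO and 5.41 and 6.13 in WT. The third (1421973_at) lay between 4.08 and 4.18 on all 4 arrays, near background.

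Gfra2, the main co-receptor for neurturin, had values of 9.27 and 8.75 in smDicer KO on its lead probe set (1433716_x_at), against 8.76 and 9.05 in WT. These overlapped, with a log2 fold change of 0.10 (SE 0.23, 95% interval -0.52 to 0.72, limma adjusted p = 0.873), and the suffix _x_at marks a probe set that may also bind other transcripts. The 4 other probe sets of Gfra2 did not point one way. 1425579_at had 6.25 and 6.37 in smDicer KO and 6.09 on each WT array, without overlap (log2 fold change 0.23, SE 0.12, limma adjusted p = 0.441). 1423007_a_at had 5.28 and 5.08 in smDicer KO and 5.62 and 5.78 in WT, also without overlap but in the other direction, with all 4 values near background (difference in log2 value -0.52, SE 0.15, limma unadjusted p = 0.0204, adjusted p = 0.257). The deposited alignments of these 2 probe sets span 88305 and 87838 bases, against 441 bases for the lead. The remaining probe sets overlapped between groups, 1459847_x_at with 7.64 and 7.11 in smDicer KO and 7.25 and 7.37 in WT, and 1425578_a_at with all values under 6.

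Of the transcription factors, Phox2a had values of 8.46 and 8.0 in smDicer KO, against 7.77 and 7.73 in WT. The groups did not overlap, and the spread was wider in smDicer KO than in WT. The means were 8.23 ± 0.33 in smDicer KO and 7.75 ± 0.03 in WT (SD, n = 2 each), with a log2 fold change of 0.48 (SE 0.19, 95% interval -0.04 to 1.0, limma unadjusted p = 0.0617, adjusted p = 0.334). It was 0.25 without the first smDicer KO array and 0.71 without the second. Hand2 had values of 4.84 and 4.23 in smDicer KO, against 4.90 and 5.26 in WT. All 4 lay near background, so no fold is given (difference in log2 value -0.54, SE 0.27, limma adjusted p = 0.401), and the difference was -0.24 without the second smDicer KO array and -0.85 without the first.

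Counted over the 14 member probe sets, 7 were higher and 7 lower in smDicer KO. At an unadjusted p under 0.05, 1 was higher (Ret) and 2 were lower (Nrtn and the dim Gfra2 probe set), where 6.41% of all probe sets were higher and 9.4% lower at that threshold. Both smDicer KO arrays lay above both WT arrays for 3 of the 14, against 20.6% of all probe sets, and below them for 5, against 28.5%. On lead probe sets alone, 4 of the 7 genes were higher and 3 lower, with 1 gene in each direction at an unadjusted p under 0.05. Over all genes these shares were 7.19% higher and 10.5% lower. The members had a median log2 fold change of 0.10, against -0.04 over all genes, and the median of the members was -0.16 without the first smDicer KO array and 0.36 without the second. The members thus had no common direction, with the ligands low and Ret and Phox2a high.

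**Figure D2:**
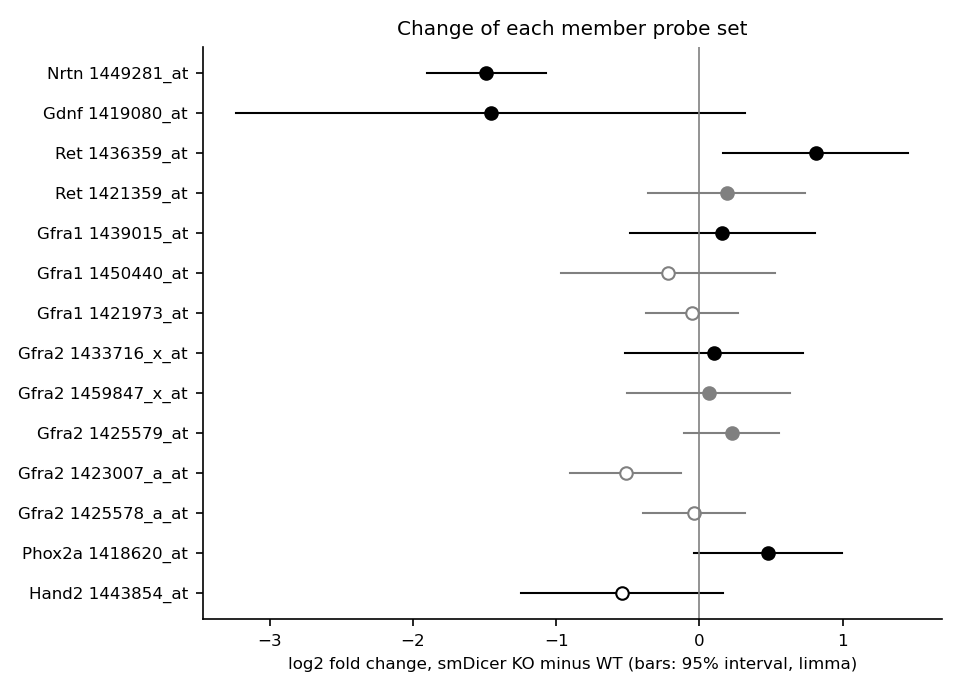
Log2 fold change of each member probe set, smDicer KO against WT, with its 95% interval from limma (n = 2 arrays each). Black marks the lead probe set of a gene, grey its other probe sets, and open symbols a mean log2 value under 6. The intervals of Nrtn (-1.90 to -1.07) and of the lead probe set of Ret (0.17 to 1.46) leave out 0 on opposite sides, and that of Gdnf (-3.23 to 0.32) does not.

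Ret and Phox2a were set beside 21 genes of enteric neurons, since both are nerve cell genes. All 21 were higher in smDicer KO, with 19 free of overlap between the groups and 11 at an unadjusted p under 0.05, and a median log2 fold change of 0.60 against -0.04 over all genes. Of all 20461 genes, 4392 were higher without overlap, and 7.19% were higher at that p. Vip, the relaxing neuropeptide vasoactive intestinal peptide, had 12.28 and 11.86 in smDicer KO and 11.13 and 10.81 in WT (log2 fold change 1.10, SE 0.21, limma adjusted p = 0.229). Calb2, the calcium-binding protein calretinin, had 10.82 and 10.48 in smDicer KO and 9.75 and 9.46 in WT (1.05, SE 0.19, limma adjusted p = 0.228). Syt1, the calcium sensor of synaptic vesicles, had 10.61 and 10.38 in smDicer KO and 9.71 and 9.77 in WT (0.76, SE 0.14, limma adjusted p = 0.229). Snap25, a part of the vesicle fusion machinery, had 11.43 and 11.00 in smDicer KO and 10.60 and 10.56 in WT (0.64, SE 0.19, limma adjusted p = 0.258). Tac1, the substance P precursor, overlapped between groups, with 11.84 and 10.88 in smDicer KO and 11.12 and 10.75 in WT.

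On its lead probe set, Ret lay within the range of this list. Of the 21 neuron genes, whose log2 fold changes ran from 0.06 to 1.26, 6 had a higher value than Ret and 15 a lower one, while 18 were above Phox2a and 3 below it. The other Ret probe set, at 0.19, was nearer the low end, and the mean over both Ret probe sets was 0.50 (limma unadjusted p = 0.0829, adjusted p = 0.359). The median of the neuron list, taken as value less WT mean, was 0.87 and 0.34 in smDicer KO, against 0.12 and -0.12 in WT. Ret stood at 1.11 and 0.51 in smDicer KO and at 0.10 and -0.10 in WT on the same scale. Less the neuron median, Ret was 0.25 and 0.17 in smDicer KO and -0.02 and 0.02 in WT, and Phox2a -0.16 and -0.09 in smDicer KO and -0.10 and 0.10 in WT. Ret, on its lead probe set, thus lay slightly above the neuron median on both smDicer KO arrays and Phox2a slightly below it, and the first smDicer KO array was the higher of the pair for all 3. That order is not particular to nerve cell genes. The medians of the smooth muscle, glia, fibroblast and Cajal cell lists had it too, and those of mucosal epithelium and pancreatic acinar cells did not. Less the neuron median, Gfra1 was -0.43 and -0.46 in smDicer KO and -0.27 and 0.27 in WT, and Gfra2 was -0.51 and -0.50 in smDicer KO and -0.27 and 0.27 in WT.

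The ligands were set beside 10 contractile genes of smooth muscle, the layer that makes much of both. All 10 were lower in smDicer KO, with a median log2 fold change of -0.33. At an unadjusted p under 0.05, 2 of the 10 were lower, against 10.5% of all genes. That median was -0.51 without the first smDicer KO array, -0.16 without the second, and -0.63 where each gene was the mean of all its probe sets. Acta2 and Tpm2, smooth muscle actin and a tropomyosin, had log2 fold changes of -0.11 (SE 0.13, limma adjusted p = 0.723) and -0.36 (SE 0.15, limma adjusted p = 0.355). Lmod1, an actin nucleator, had 9.48 and 8.56 in smDicer KO and 9.97 and 9.88 in WT (-0.91, SE 0.33, limma adjusted p = 0.308). Smtn, the actin-binding protein smoothelin, had 12.01 and 11.19 in smDicer KO and 12.30 and 12.59 in WT (-0.85, SE 0.31, limma adjusted p = 0.314). On lead probe sets the 10 fold changes ran from -0.91 to -0.11, and every one of them lay above those of Nrtn and Gdnf. Acta2, the brightest of the 10, had 14.43 and 14.25 in smDicer KO and 14.46 and 14.44 in WT, far above the values of Nrtn. Whether such brightness narrowed the fold changes of the list was not tested.

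Less the smooth muscle median of the same array, taken on lead probe sets, Nrtn was -1.23 and -1.07 in smDicer KO, against -0.13 and 0.13 in WT. Gdnf was -0.35 and -1.89 in smDicer KO, against -0.28 and 0.28 in WT. Nrtn thus remained apart on both smDicer KO arrays, while the first Gdnf value in smDicer KO lay close to the first in WT. The 7 fibroblast genes, from a further cell type of the gut wall, had log2 fold changes from -0.87 to 0.10, all above that of Nrtn, and a median of 0.05. The lowest was Dpt, the matrix protein dermatopontin, with 11.19 and 10.43 in smDicer KO and 11.71 and 11.65 in WT (limma adjusted p = 0.277).

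**Figure D3:**
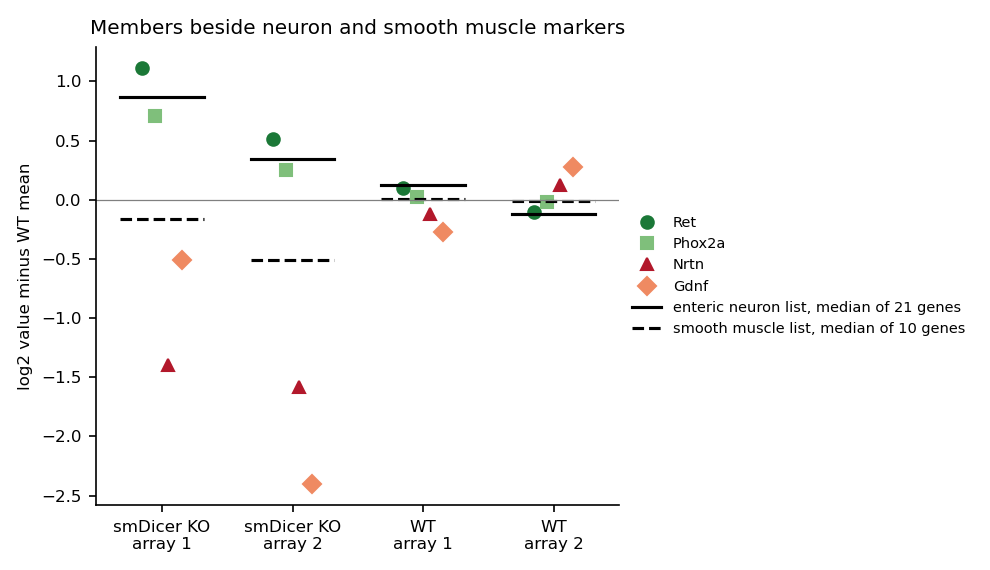
Log2 value less its WT mean of Ret, Phox2a, Nrtn and Gdnf on each array, with the medians of the enteric neuron list (solid line, 21 genes) and the smooth muscle list (dashed line, 10 genes). Ret, drawn on its lead probe set only, and Phox2a lie near the neuron line on all 4 arrays. Nrtn, at -1.40 and -1.58 in smDicer KO, lies below both lines there. Gdnf is far below them only on the second smDicer KO array (-2.40).

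Of 6 further ligands and co-receptors listed, 5 were measured, with 1 higher and 4 lower in smDicer KO and a median log2 fold change of -0.08. Ncam1, an adhesion molecule that can act as an alternative receptor for GDNF, had 10.16 and 9.86 in smDicer KO and 9.40 and 9.49 in WT, the only difference of the 5 at an unadjusted p under 0.05 (0.56, SE 0.16, limma unadjusted p = 0.0192, adjusted p = 0.255). Among all genes, 7.19% were higher and 10.5% lower at that threshold. The study used Ncam1 as a marker of nerve cells, and the enteric neuron list had a median log2 fold change of 0.60. Gas1, which is related to the GFR alpha proteins and can bind RET, had 12.30 and 11.81 in smDicer KO and 12.11 and 12.14 in WT, with overlap. Named after their values were seen, Gfra4, the persephin co-receptor, had 7.59 and 6.52 in smDicer KO and 7.88 and 7.79 in WT (-0.78, SE 0.38, limma adjusted p = 0.398), and the ligand genes Artn and Pspn lay under 6 on all 4 arrays.

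Of 20 adaptors and downstream genes of RET, 18 were measured and 8 were higher and 10 lower, with a median of -0.01, close to that of all genes. At an unadjusted p under 0.05, 2 were higher and 1 was lower. These counts are near the shares over all genes, 7.19% higher and 10.5% lower, so the 3 are given as single genes only. Grb10, an adaptor that binds phosphorylated RET, had 10.43 and 9.97 in smDicer KO and 9.67 and 9.54 in WT (0.59, SE 0.20, limma adjusted p = 0.290). Dusp6, a phosphatase induced by ERK signalling, had 9.08 and 9.25 in smDicer KO and 8.80 and 8.66 in WT (0.44, SE 0.14, limma adjusted p = 0.274). Ptpn11, the phosphatase SHP2 of receptor tyrosine kinase signalling, had 10.30 and 10.07 in smDicer KO and 10.72 and 10.62 in WT (-0.49, SE 0.15, limma adjusted p = 0.262). Other targets of ERK signalling, named after their values were seen, had log2 fold changes of 0.01 for Spry2, -0.08 for Spry4 and -0.01 for Etv5. Etv4, named in the same way, lay under 6 on all 4 arrays, near background, so no fold is given.

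Of 24 further genes of neural crest and enteric nervous system development, 20 were measured, and 16 of them were higher and 4 lower, with a median log2 fold change of 0.23 (0.11 without the first smDicer KO array and 0.12 with the mean over all probe sets of a gene). At an unadjusted p under 0.05, 6 were higher and 1 was lower, against 7.19% and 10.5% of all genes. L1cam, an adhesion molecule of migrating crest cells and axons, had 10.63 and 10.38 in smDicer KO and 9.65 and 9.57 in WT (0.89, SE 0.15, limma unadjusted p = 0.00251, adjusted p = 0.223). Its groups were separated by more than the distance between arrays of a group.

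Ngfr, the p75 neurotrophin receptor that marks crest cells, had 9.47 and 9.14 in smDicer KO and 8.52 and 8.72 in WT (0.69, SE 0.18, limma adjusted p = 0.243). Ntrk3, the receptor for neurotrophin 3, had 7.65 and 7.36 in smDicer KO and 7.06 and 6.81 in WT (0.57, SE 0.18, limma adjusted p = 0.268). Erbb3, a neuregulin receptor of crest cells and glia that epithelium also makes, had 8.64 and 9.84 in smDicer KO and 7.77 and 8.02 in WT (1.35, SE 0.43, limma adjusted p = 0.276), so that its highest value lay on the array with the most epithelial signal. The 1 lower gene was Hand1, a relative of Hand2 made in gut mesenchyme and named after its values were seen, with 8.06 and 7.36 in smDicer KO and 8.42 and 8.71 in WT (-0.86, SE 0.28, limma unadjusted p = 0.0319, adjusted p = 0.280). Ece1, which activates endothelins, overlapped between groups, with 10.10 and 9.64 in smDicer KO and 9.58 and 10.13 in WT.

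Phox2a and Hand2 are also known as regulators of noradrenergic genes, of which 7 were measured, 6 higher and 1 lower with a median of 0.28 (0.10 without the first smDicer KO array and 0.12 without the second WT array). At an unadjusted p under 0.05, 1 gene was higher, where 7.19% of all genes were. This was Ddc, the decarboxylase that makes dopamine and serotonin, with 9.23 and 9.88 in smDicer KO and 7.83 and 7.92 in WT (1.68, SE 0.25, limma unadjusted p = 0.00163, adjusted p = 0.215). Ddc is also made in intestinal epithelium, whose markers were higher on the same arrays, and Th, the enzyme that defines the pathway, lay under 6 on all 4 arrays. Dbh, which makes noradrenaline, had 7.60 and 7.61 in smDicer KO and 7.29 and 7.36 in WT (0.28, SE 0.12, limma adjusted p = 0.353).

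Of the genes of glia, which derive from the same crest cells, 5 of 7 measured were higher and 2 lower, with a median log2 fold change of 0.03. At an unadjusted p under 0.05, 3 were higher and 0 lower, against 7.19% and 10.5% of all genes. Entpd2, an ectonucleotidase of enteric glia, had 9.25 and 9.12 in smDicer KO and 8.18 and 8.22 in WT (0.98, SE 0.13, limma adjusted p = 0.215). Gfap, the glial intermediate filament, had 7.51 and 7.58 in smDicer KO and 6.79 and 6.35 in WT (0.98, SE 0.19, limma adjusted p = 0.229). Fabp7, a glial fatty acid binding protein, had 8.98 and 8.24 in smDicer KO and 8.72 and 9.15 in WT, with overlap. Among the 4 genes of interstitial cells of Cajal, the pacemaker cells of the muscle, all were higher, with a median of 0.39. Of these, 2 were higher at an unadjusted p under 0.05, against 7.19% of all genes.

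**Figure D4:**
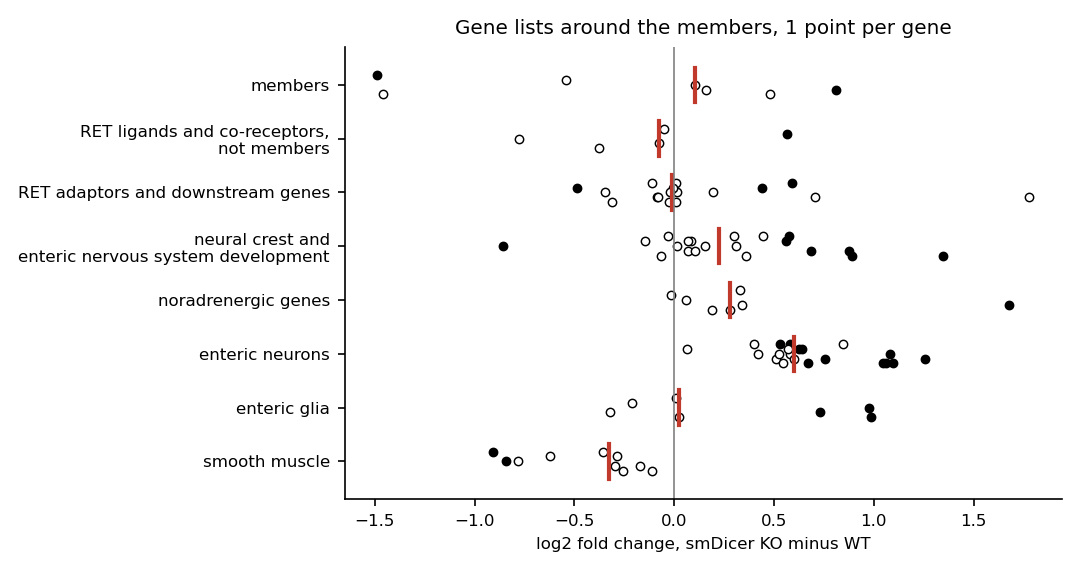
Log2 fold change of each gene, smDicer KO against WT, for the members and for the gene lists beside them (filled points, unadjusted p under 0.05 in limma, n = 2 arrays each), with the median of each group as a red bar. The enteric neuron genes all lie above 0 (median 0.60) and the smooth muscle genes all below it (median -0.33), while the members spread from Nrtn at -1.49 to Ret at 0.81.

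Genes whose pattern over the 4 arrays was most like that of Ret were sought among 3710 genes, by the root mean square difference between log2 values less their WT means. The nearest were Tcirg1, a subunit of the vacuolar proton pump (0.007), Dtx3l, a ubiquitin ligase (0.016), Shisa5 (0.025), Sez6l2 (0.030) and Cnr1, the cannabinoid receptor of neurons (0.036). Cnr1 had values of 10.46 and 9.92 in smDicer KO, against 9.52 and 9.32 in WT, and its log2 fold change was 0.77 (SE 0.22, limma adjusted p = 0.258). Only 4 arrays in 2 groups enter this measure, so the order describes these arrays only.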

How the data were processed

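Total RNA of the stripped muscularis was hybridized to Affymetrix GeneChip arrays by the authors, 1 array per mouse. The deposited log2 values were normalized by the authors with RMA, which subtracts background, equalizes the distributions of the arrays and summarizes the probes of each set, and were used without further scaling. The deposited table of the authors' own fold changes and p-values served only for its gene symbols, titles and alignments, whose genome build is not given in the sources used here. Of 45101 probe sets, 64 controls were left out. Each of the 45037 others was tested with limma for the difference of the 2 smDicer KO from the 2 WT arrays (lmFit and eBayes, 2.49 prior degrees of freedom and a prior variance of 0.0249), with Benjamini-Hochberg adjustment over all of them. The arrays give no counts, so their number limits the precision, and nothing says whether the mice of a group shared a litter. A symbol counted where a probe set had it alone (36804 probe sets, against 2005 with several and 6228 with none), which gave 20461 genes, each on the probe set with the highest mean. Some listed markers carry older symbols in the annotation (Epcam as Tacstd1, Adgre1 as Emr1).

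The genes, gene lists and tests were chosen with earlier results of these data known. Besides the members, the text names the 2 genes of each list with the highest mean and up to 5 with an unadjusted p under 0.05, and the 5 genes most like Ret, though not all of these are given in full. Some single genes are withheld and not reported here, but count in their lists. Alternatives were cyclic loess, arrays centred on their medians, a filter on dim probe sets, a linear model without moderation, eBayes with a robust trend, a block for the replicate number, each array left out, and the mean over all probe sets of a gene. The script was tested on simulated data. Versions were limma 3.58.1 in R 4.3.3, and scipy 1.17.1, numpy 2.4.6 and pandas 2.3.3 in Python 3.11.15. Promoter windows came from RefSeq tables.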

Additional observations from a re-analysis of the deposited data

How the results depend on the processing

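Nrtn and Gdnf were lower and Ret and Phox2a higher in smDicer KO under every alternative run, and 0 probe sets passed the adjusted p except without the first smDicer KO array, where 378 did (349 higher and 29 lower). With an array left out, the group of 1 array is assumed to vary like the other group, whose 2 arrays alone give the spread. Leaving out 1 array gave 0 to 378 such probe sets, 2245 to 9792 at an unadjusted p under 0.05 and 1 to 5 member probe sets at that p. The unadjusted count, 7119 in the reported fit (2887 higher and 4232 lower), was 4527 with the unmoderated linear model and 4370 of 18290 with the filter, which left 9 member probe sets and none of Hand2. Cyclic loess turned the split to 3825 higher and 3279 lower, and centring on array medians gave 2471 higher and 5158 lower. The member count was 3 in the reported fit, 1 with the unmoderated model (Nrtn), 2 with the filter and 4 with cyclic loess, which added Phox2a. Leaving out 1 array gave log2 fold changes of -1.61 to -1.36 for Nrtn, -2.40 to -0.51 for Gdnf, 0.51 to 1.11 for Ret, 0.25 to 0.71 for Phox2a and -0.85 to -0.24 for Hand2. It turned the sign of Gfra1 (-0.12 to 0.44), of Gfra2 and of the median of the members (both -0.16 to 0.36, and -0.05 without the first WT array). The mean over all probe sets of a gene also turned these, to -0.036, -0.032 and -0.036, and the cause was not tested. The median of the RET adaptors, -0.01 in the reported fit, was 0.081 with cyclic loess, -0.051 with arrays centred on medians and -0.052 with the mean over probe sets, and ran from -0.032 to 0.054 with 1 array left out (0.018 without the second smDicer KO array). That of the further ligands and co-receptors, -0.08 in the reported fit, ran from -0.318 to 0.005, the last without the second smDicer KO array. The median of the noradrenergic genes ran from 0.096 to 0.300, that of the neural crest genes from 0.11 to 0.331 and that of smooth muscle from -0.511 to -0.164 (-0.629 with the mean over probe sets). The replicate numbers were not shown to pair the arrays (correlation of deviations 0.251, with only 2 pairs). With the replicate number as a block, 6672 probe sets had an unadjusted p under 0.05, 0 passed the adjusted p, and Ret had a log2 fold change of 0.81 (limma adjusted p = 0.309). Over all alternatives the adjusted p (limma, Benjamini-Hochberg) ran from 0.0792 to 0.780 for Nrtn, 0.0894 to 0.800 for Gdnf, 0.173 to 0.780 for Ret and 0.225 to 0.780 for Phox2a.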
